A study of Mus musculus with 6 samples.

Results

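The V1 sector of the vacuolar H+-ATPase (V-ATPase) is described here through the RNA of 10 genes, Atp6v1a, Atp6v1b1, Atp6v1b2, Atp6v1c1, Atp6v1c2, Atp6v1d, Atp6v1e1, Atp6v1f, Atp6v1g1 and Atp6v1h, out of 30142 genes measured. A gene was a member by its name, with no use of its values, through probe sets that the array annotation assigns to that gene alone. All 10 were on the arrays, each by 1 probe set, and they cover every V1 subunit letter from A to H. Epidermal sheets of E18.5 mouse embryos were compared by genotype, 3 of Rptor cKO and 3 of wild-type littermates, each on its own expression array. Rptor encodes Raptor, which recruits the substrates of the kinase mTORC1, and cKO stands for conditional knockout. The sheets were freed from the dermis with ammonium thiocyanate, and littermates were classed by hand and then genotyped. No source used here gives the promoter that drives Cre, the deleted exons or the strain. The series title names mTORC1 feedback to AKT, lysosomal biogenesis driven by MiT/TFE factors and EGFR degradation, and its design asks whether lysosomal genes are lower in Rptor cKO epidermis.

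The V-ATPase is a rotary pump that uses ATP to move protons into lysosomes, endosomes and other compartments. Its V1 sector stands in the cytosol and hydrolyses ATP, and its V0 sector lies in the membrane and carries the protons. In V1, A and B subunits form the ring that binds nucleotide, D and F form the central shaft, E and G form the outer stalks, and C and H join the stalks to the membrane sector. V1 can come off V0, which stops the pump, and C leaves the enzyme when it does. The lysosomal V-ATPase also binds the Ragulator complex in the sensing of amino acids by mTORC1. The MiT/TFE transcription factors, which mTORC1 holds back in well-fed cells, switch on V-ATPase genes in several mammalian cell types.

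Of the 10 V1 genes, 6 fell in Rptor cKO epidermis and none rose, while 5.95% of all genes tested were called lower and 3.63% higher. These calls rest on a moderated linear model (limma) over all genes, with a Benjamini-Hochberg adjusted p under 0.05. The 6 were Atp6v1a, Atp6v1c1, Atp6v1c2, Atp6v1d, Atp6v1e1 and Atp6v1h, and the 4 that did not pass were Atp6v1b1, Atp6v1b2, Atp6v1f and Atp6v1g1. At an unadjusted p under 0.05 the same 6 were lower and 0 higher, where 11.4% of all genes were lower and 11.9% higher. All 10 differences were below 0, with a median of -0.63 on the log2 scale, where the median over all genes was 0.05. For 8 of the 10, all 3 Rptor cKO arrays lay below all 3 wild-type arrays, which was so for 12.5% of all genes. The count of 6 depended on Rptor cKO array 2. By Xist and Y-linked genes that array held the only male Rptor cKO embryo, and all wild-type embryos were male. Leaving it out therefore sets female Rptor cKO against male wild type, so sex and genotype cannot be told apart there. Without that array 1 V1 gene was called lower, Atp6v1d, at a median of -0.61, and 2.03% of all genes were called lower (612, against 1793 with all arrays). Without any other single array 4 to 6 V1 genes were called lower, and 3.69% to 5.41% of all genes. A value in whole tissue cannot tell fewer cells of a type from less RNA per cell.

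Sequence before the start of transcription was at hand in RefSeq for 6 of the 10 genes. These were Atp6v1a, Atp6v1b1, Atp6v1c2, Atp6v1d, Atp6v1e1 and Atp6v1f. The 250 bases before each annotated start (GRCm38.p6, the assembly of mm10) are shown for 3 of them, which differ in their values and in base content. Atp6v1a fell and is the only one of the 6 with a MiT/TFE-type motif, Atp6v1c2 fell furthest, and Atp6v1b1 did not pass the test. Capitals mark the motif TCACGTGA in Atp6v1a and each CG dinucleotide in the others.
Atp6v1a (chr16:44139260-44139509, minus strand): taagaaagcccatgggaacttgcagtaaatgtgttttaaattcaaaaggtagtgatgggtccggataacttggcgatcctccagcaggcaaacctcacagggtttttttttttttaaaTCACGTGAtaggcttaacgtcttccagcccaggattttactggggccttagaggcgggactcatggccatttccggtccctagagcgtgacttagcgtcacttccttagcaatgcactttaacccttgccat
Atp6v1c2 (chr12:17324731-17324980, minus strand): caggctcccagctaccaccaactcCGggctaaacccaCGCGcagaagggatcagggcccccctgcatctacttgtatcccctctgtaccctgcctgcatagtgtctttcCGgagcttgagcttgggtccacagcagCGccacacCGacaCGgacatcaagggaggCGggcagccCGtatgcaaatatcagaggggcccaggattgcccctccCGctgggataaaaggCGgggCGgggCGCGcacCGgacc
Atp6v1b1 (chr6:83742767-83743016, plus strand): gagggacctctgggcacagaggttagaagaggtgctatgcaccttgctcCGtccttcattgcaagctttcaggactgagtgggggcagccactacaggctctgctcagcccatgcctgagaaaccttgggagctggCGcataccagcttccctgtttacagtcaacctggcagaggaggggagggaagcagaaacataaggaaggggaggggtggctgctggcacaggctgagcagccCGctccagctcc

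The windows were searched on both strands for CACGTG, the core that MiT/TFE and other E-box factors bind, and for its longer form TCACGTGA. They were also searched for AACCGGTT, the motif of Grainyhead-like factors, and TGACTCA, the motif of AP-1. The longer E-box form always contains the shorter one. Only the Atp6v1a window, 1 of the 6, had CACGTG, as part of TCACGTGA, which begins 132 bases before the start. CACGTG was in 6.02% of 32851 windows of the same length over the genome, TCACGTGA in 0.785%, AACCGGTT in 0.116% and TGACTCA in 4.46%. None of these 6 windows held AACCGGTT or TGACTCA. For the V0 sector and accessory subunits, 14 windows of 10 genes were at hand, and 1, of Atp6v0b, held CACGTG. The windows of Atp6v1a, Atp6v1c2 and Atp6v1d lie inside the annotated span of their gene, since another transcript starts further upstream. The Atp6v1b1 window held 3 CG dinucleotides and the other 5 held 8 to 18, where the median over all windows was 6. A motif match is a description of these letters and not a measured binding site.

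**Figure D1:**
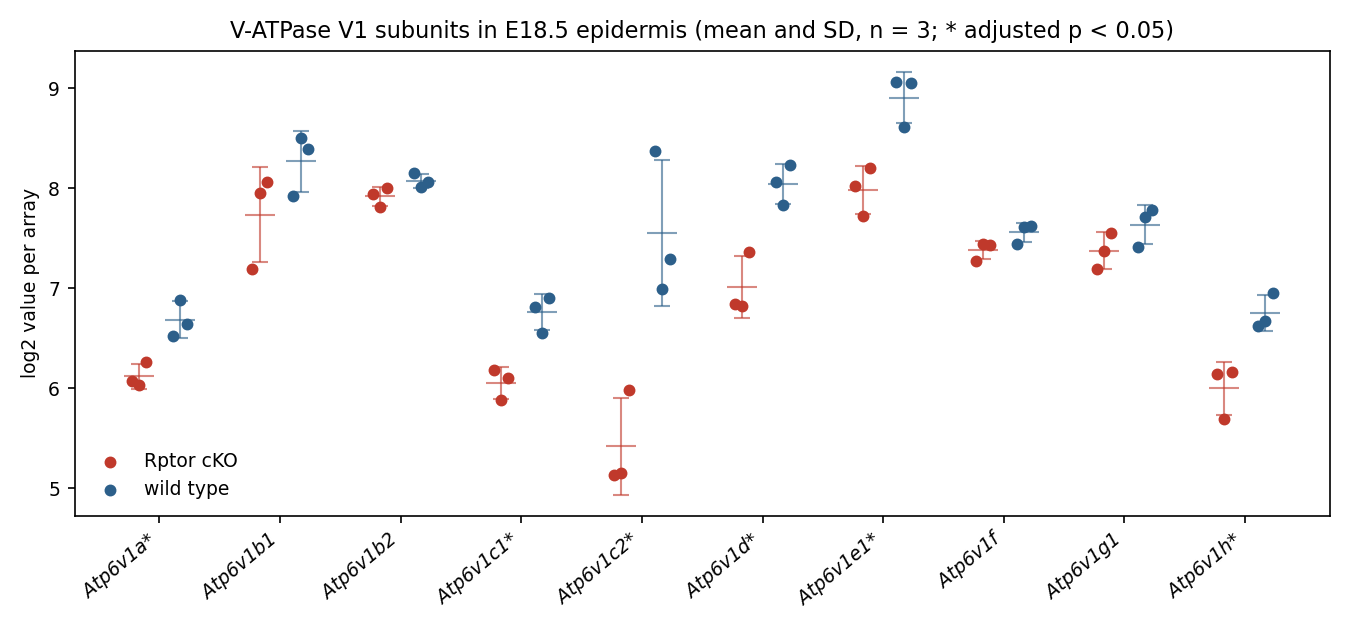
The plot of V1 subunit values shows the log2 value of each of the 10 genes on every array, with Rptor cKO (3 arrays) left of wild type (3 arrays) and the mean and SD of each group as bars. The groups lie furthest apart for Atp6v1c2, at 5.13 to 5.98 in Rptor cKO and 6.99 to 8.38 in wild type, while Atp6v1b1 and Atp6v1g1 overlap.

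The ring of A and B subunits holds the sites where ATP binds, and A carries out the hydrolysis. Atp6v1a (chromosome 16, 44085402 to 44139702), the sole A gene, read 6.07, 6.03 and 6.26 on the Rptor cKO arrays and 6.52, 6.88 and 6.64 on the wild-type arrays. Every Rptor cKO array was below every wild-type array, and the lowest wild-type array was 0.26 above the highest Rptor cKO array. Atp6v1a fell 1.48-fold (log2 difference -0.56, SE 0.12, limma adjusted p = 0.0238), the smallest of the 6 falls. Its call was lost without Rptor cKO array 1 (adjusted p = 0.0701), Rptor cKO array 2 (0.107), wild-type array 5 (0.0572) or wild-type array 6 (0.0605).

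The B subunit has 2 genes. B2 is found in most tissues, and B1 is known from acid-secreting cells such as those of the kidney collecting duct, where its loss in humans impairs acid excretion. Atp6v1b1 (chromosome 6, 83743017 to 83758855) read 7.19, 7.96 and 8.06 in Rptor cKO and 7.92, 8.50 and 8.39 in wild type. Rptor cKO array 1 stood low, and the other 2 lay above the lowest wild-type array, so the groups overlapped. The difference was -0.54 with a 95% interval of -1.08 to 0.01 (adjusted p = 0.227). Without Rptor cKO array 1 it was -0.26. Atp6v1b2 (chromosome 8, 69088736 to 69113718) read 7.95, 7.81 and 7.997 in Rptor cKO and 8.15, 8.02 and 8.06 in wild type. The groups were apart by 0.02, and the difference of -0.16 had an interval of -0.37 to 0.06 (adjusted p = 0.364).

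D and F make up the shaft that turns inside the ring. Atp6v1d (chromosome 12, 78842982 to 78862008) read 6.84, 6.82 and 7.37 in Rptor cKO and 8.07, 7.84 and 8.23 in wild type. The groups were 0.47 apart, with Rptor cKO array 3 nearest to the wild type. Atp6v1d fell 2.05-fold (-1.03, SE 0.17, limma adjusted p = 0.00902) and kept its call with any 1 array left out, at an adjusted p of 0.0494 without Rptor cKO array 2. Its call was lost with embryo sex as a term in the model (difference -1.22), as were those of Atp6v1a, Atp6v1c1 and Atp6v1c2. Atp6v1f (chromosome 6, 29467783 to 29470509) read 7.27, 7.44 and 7.43 in Rptor cKO and 7.45, 7.61 and 7.62 in wild type. The groups nearly touched, 0.0028 apart, and the difference of -0.18 had an interval of -0.40 to 0.05 (adjusted p = 0.327). Whether the D and F changes differ was not tested.

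E and G pair along the outer stalks, which keep the ring from turning with the shaft. Atp6v1e1 (chromosome 6, 120795244 to 120822698) read 8.02, 7.72 and 8.21 in Rptor cKO and 9.06, 8.61 and 9.05 in wild type. The groups were 0.40 apart. Atp6v1e1 fell 1.90-fold (-0.92, SE 0.16, limma adjusted p = 0.0119), with an adjusted p of 0.0542 without Rptor cKO array 2. Atp6v1g1 (chromosome 4, 63544765 to 63550701) read 7.19, 7.38 and 7.56 in Rptor cKO and 7.41, 7.71 and 7.78 in wild type. Rptor cKO array 3 lay above wild-type array 4, so the groups overlapped, and the difference of -0.26 had an interval of -0.57 to 0.05 (adjusted p = 0.293).

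C and H hold the stalks to the membrane sector, and H also blocks ATP hydrolysis in V1 that has come off V0. Atp6v1h (chromosome 1, 5082978 to 5163213) read 6.14, 5.70 and 6.16 in Rptor cKO and 6.62, 6.68 and 6.95 in wild type. The groups were 0.46 apart, with Rptor cKO array 2 the lowest. Atp6v1h fell 1.68-fold (-0.75, SE 0.15, limma adjusted p = 0.0184), with an adjusted p of 0.0614 when wild-type array 6 was left out and 0.0603 when Rptor cKO array 2 was. Atp6v1c1 (chromosome 15, 38661904 to 38692444), the C gene used in most tissues, read 6.18, 5.88 and 6.10 in Rptor cKO and 6.81, 6.56 and 6.91 in wild type. These groups were 0.37 apart. Atp6v1c1 fell 1.63-fold (-0.71, SE 0.13, limma adjusted p = 0.0121), with an adjusted p of 0.0590 without Rptor cKO array 2.

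Atp6v1c2, the second C gene, is known from lung, kidney and a few other tissues. On chromosome 12, from 17284721 to 17325386, it read 5.13, 5.15 and 5.98 on the Rptor cKO arrays and 8.38, 6.99 and 7.29 on the wild-type arrays. Rptor cKO array 3 and wild-type array 4 stood apart from the rest of their groups, both upward, and the groups were still 1.02 apart. Its means were 5.42 ± 0.49 for Rptor cKO and 7.55 ± 0.73 for wild type (SD, n = 3 each), the widest group spreads among the 10. Atp6v1c2 fell 4.39-fold (-2.13, SE 0.36, limma adjusted p = 0.0100), and 0.448% of all genes had a lower difference. Its limma adjusted p was 0.0554 without Rptor cKO array 2 (difference -1.999). Its call was also lost with embryo sex as a term in the model (difference -2.40).

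Isoforms of the same subunit were compared by the difference of their log2 values within each array, which drops whatever an array shares across genes. The level of that difference has no meaning, because probe sets differ in brightness, but its change between groups does. For C2 minus C1 it was -1.05, -0.73 and -0.12 in Rptor cKO and 1.56, 0.44 and 0.38 in wild type. The groups did not overlap, and the difference moved by -1.43 (SE 0.47), with exact permutation p = 0.1, the smallest that 3 against 3 arrays can give. For B1 minus B2 it was -0.75, 0.15 and 0.06 in Rptor cKO and -0.23, 0.48 and 0.33 in wild type. The groups overlapped, and the change was -0.38 (SE 0.36, exact permutation p = 0.4).

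The V1 genes Atp6v1e2, Atp6v1g2 and Atp6v1g3, known mainly from testis, brain and kidney, gave 3 further pairs. Atp6v1e2 read 5.34, 4.92 and 4.80 in Rptor cKO and 5.47, 5.27 and 5.41 in wild type, a difference of -0.37 (SE 0.15, limma adjusted p = 0.174). Rptor cKO array 1 lay within the wild-type range, and without it Atp6v1e2 passed the test (adjusted p = 0.0374). With any other array left out Atp6v1e2 did not pass (limma adjusted p 0.193 to 0.422). Atp6v1g2 read 5.48, 5.46 and 5.49 in Rptor cKO and 5.21, 5.27 and 5.23 in wild type, so its groups were apart upward, but the difference of 0.24 (SE 0.08) did not pass (adjusted p = 0.115). Atp6v1g3 read under the array's negative control median on every Rptor cKO array and on 2 of 3 wild-type arrays. The within-array change was 0.56 (SE 0.24, exact permutation p = 0.2) for E2 minus E1, 0.50 (SE 0.15, exact permutation p = 0.1) for G2 minus G1 and 0.41 (SE 0.36, exact permutation p = 0.3) for G3 minus G1. Over the 5 pairs the Benjamini-Hochberg adjusted p ran from 0.25 to 0.4, so none passed, and with 3 arrays a group none could.

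**Figure D2:**
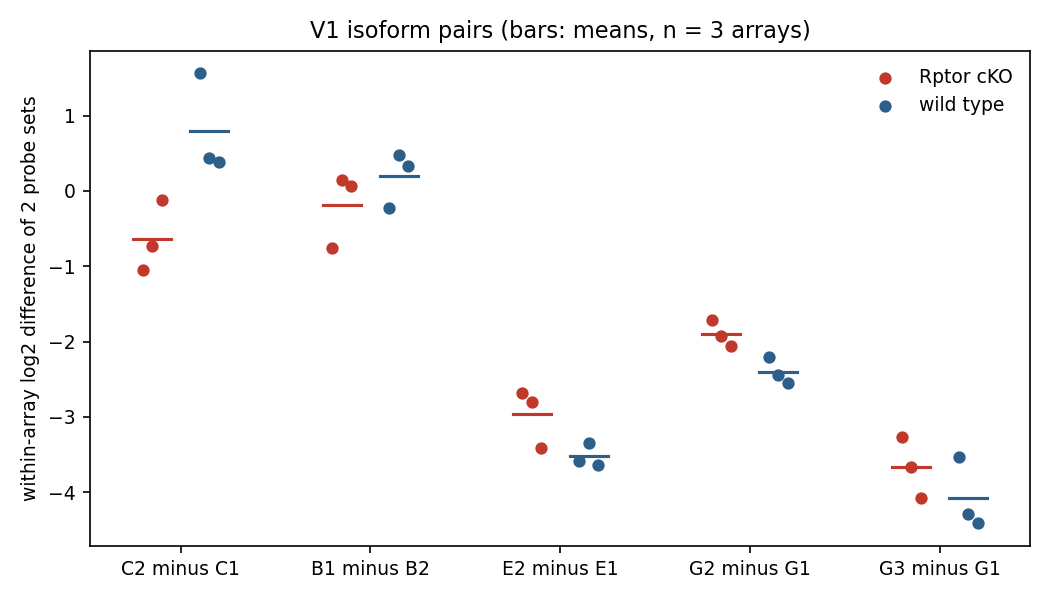
The plot of isoform pairs shows the log2 difference between the 2 probe sets of each pair within every array, with Rptor cKO left of wild type and bars at the means of 3 arrays. The groups do not overlap for C2 minus C1, which is lower in Rptor cKO, or for G2 minus G1, which is higher in Rptor cKO.

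The 10 genes did not move evenly from array to array. Relative to its mean over all 6 arrays, the mean of the 10 V1 genes was -0.46, -0.47 and -0.15 in Rptor cKO and 0.38, 0.28 and 0.43 in wild type. All 10 V1 genes were above their group mean on Rptor cKO array 3, which held the highest Rptor cKO value for 8 of them, while Rptor cKO array 2 held the lowest for 6. In wild type no array did this for all 10. There array 6 held the highest value for 5 genes, and arrays 4 and 5 each held the lowest for 5. Over all genes as well, Rptor cKO array 3 was the most like wild type of its group. Its mean correlation with the wild-type arrays was 0.982, against 0.969 and 0.970 for Rptor cKO arrays 1 and 2. Atp6v1c1, Atp6v1h, Atp6v1e1 and Atp6v1a stayed nearest to the mean profile, at root mean square distances of 0.13 to 0.17 on the log2 scale, and Atp6v1c2 was furthest, at 0.83.

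Genes of the differentiated epidermal layers moved across the same arrays. All 12 of 12 listed spinous and granular genes fell in Rptor cKO, among them Tgm3 (-2.91), Hal (-5.08), Casp14 (-3.87) and Krtdap (-1.97). Of all genes, 5.95% were called lower and 3.63% higher. The list was chosen with earlier results of these data known, so the count is no separate result. Without Rptor cKO array 2 the count was 6, and without wild-type array 6 it was 7. The mean log2 level of these 12 genes was 8.01, 7.92 and 9.39 on the Rptor cKO arrays and 11.20, 10.55 and 10.82 on the wild-type arrays. Rptor cKO array 3 and wild-type array 4 were thus the highest of their groups, as for Atp6v1c2. Wild-type array 4 held the highest wild-type value for 3 of the 10 V1 genes and the lowest for 5. Over all genes, it was least like Rptor cKO (mean correlation 0.966, against 0.978 and 0.977 for wild-type arrays 5 and 6). Rptor cKO array 3 was the most like wild type of its group over all genes. Of 9 basal genes, Itga3 (1.41) and Itgb4 (0.98) rose and Krt15 (-2.31) fell, and the mean level of the list was 8.76 to 8.999 in Rptor cKO and 8.59 to 8.92 in wild type. The part of layer composition in the V1 differences was not tested.

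**Figure D3:**
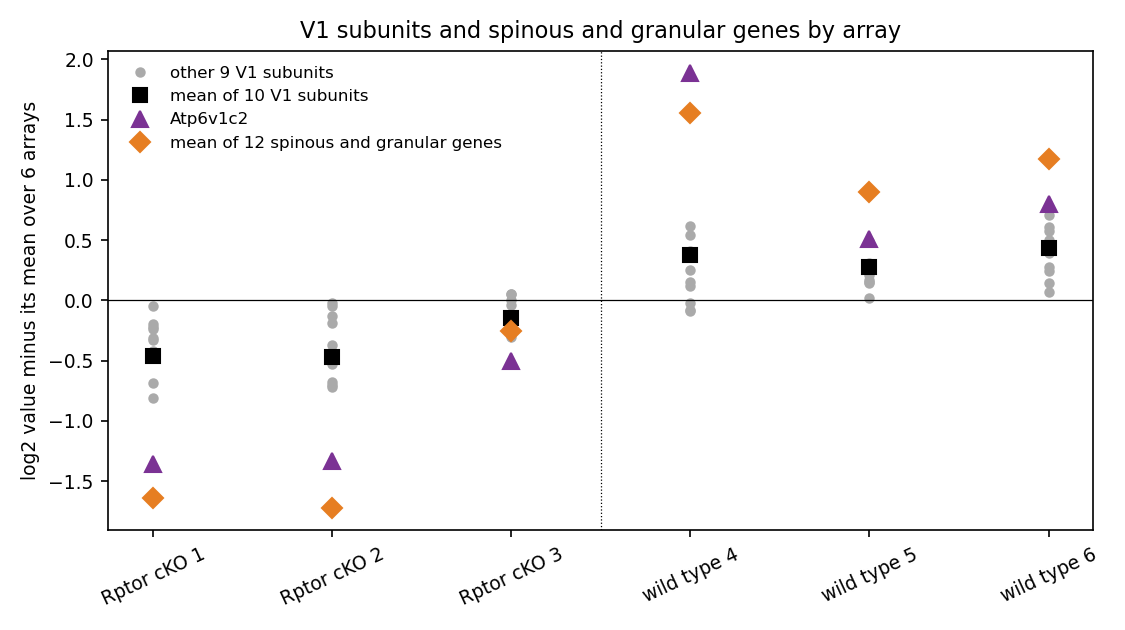
The plot of array profiles shows log2 values minus their mean over the 6 arrays, for the 3 Rptor cKO arrays left of the 3 wild-type arrays. Symbols are the mean of the 10 V1 genes, Atp6v1c2, each of the other 9 V1 genes and the mean of 12 spinous and granular genes. Rptor cKO array 3 is the nearest of its group to the wild type in the V1 mean (-0.15), and wild-type array 4 is the highest for Atp6v1c2 (1.89).

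Other cell types that a sheet can hold were read from their markers. The counts below stand beside 5.95% of all genes called lower and 3.63% called higher. Fibroblast genes were higher, with 4 of 6 called and a mean level of 6.05 to 6.69 in Rptor cKO and 5.50 to 5.72 in wild type. The number called was 1 without Rptor cKO array 2 or wild-type array 6, and 2 to 6 without any other array. Of 8 macrophage and Langerhans cell genes 3 fell, with a mean level of 4.82 to 5.03 in Rptor cKO and 5.16 to 5.23 in wild type, and 1 fell without Rptor cKO array 2. The 6 endothelial genes lay at 3.82 to 3.98 in Rptor cKO and 3.62 to 3.87 in wild type, near the median of the negative controls, and 1 of them, Pecam1, was called higher (0.53, limma adjusted p = 0.0167). Among 7 genes of ionocytes, cells rich in V-ATPase at the cell surface, 1 fell and 2 stayed below the negative control median throughout. The mean level of that list was 4.89 to 5.11 in Rptor cKO and 5.05 to 5.22 in wild type. Melanocyte genes, whose melanosomes also carry the pump, held no call in either direction among 6 (2 were higher at an unadjusted limma p under 0.05), with a mean level of 7.14 to 7.83 in Rptor cKO and 6.79 to 7.43 in wild type. The part of these cell types in the V1 differences was not tested.

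The membrane sector V0 and its accessory subunits gave 4 falls and no rise among 11 measured genes, beside 5.95% and 3.63% of all genes. The median of the 11 was -0.47. At an unadjusted limma p under 0.05, 7 were lower and 0 higher, beside the 11.4% and 11.9% of all genes at that threshold. Atp6v0c and Rnasek, whose probe sets name several genes, were not used. Atp6v0e, a small membrane subunit, read 7.37, 7.30 and 7.74 in Rptor cKO and 8.20, 8.54 and 8.54 in wild type (difference -0.95, SE 0.15, limma adjusted p = 0.00749). Atp6v0a1 (-0.70, SE 0.13) and Atp6v0a4 (-0.78, SE 0.14) fell as well. They are isoforms of subunit a, which carries the proton channel and binds the C subunit and the stalks. The other isoforms of subunit a did not pass. Atp6v0a2 differed by -1.12 (SE 0.31, limma adjusted p = 0.0596), with its groups apart downward, and Tcirg1 by 0.12 (SE 0.10). Atp6ap1, an accessory subunit, fell by 0.47 (SE 0.12, limma adjusted p = 0.0484), and missed without Rptor cKO array 1 or 2 or wild-type array 5 or 6 (adjusted p 0.0986 to 0.162). Without Rptor cKO array 2 the count was 1, Atp6v0e, and without wild-type array 6 it was 2.

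Of 7 assembly genes 2 fell and none passed as higher, beside 5.95% and 3.63% of all genes. The 2 were Wdr7 (-0.51, SE 0.09) and Rogdi (-0.82, SE 0.21). Both belong to the complex that puts V1 back onto V0. At an unadjusted limma p under 0.05, 4 were lower and 1 higher, Dmxl2 of the same complex, with a difference of 0.31 (SE 0.13, adjusted p = 0.204) and its groups apart upward. Wdr7 read 5.39, 5.40 and 5.39 in Rptor cKO and 5.81, 5.95 and 5.95 in wild type. Neither passed without Rptor cKO array 2, where the adjusted p of Wdr7 was 0.0527, and Rogdi also missed without wild-type array 4, 5 or 6 (adjusted p 0.0890 to 0.123). In the TLDc family, some of whose members bind V1 and part it from V0, none of 4 measured genes passed in limma, and none had an unadjusted p under 0.05. Oxr1 differed by -0.19 (SE 0.10) and Ncoa7 by 0.13 (SE 0.10), but Ncoa7 read under the negative control median on every array.

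**Figure D4:**
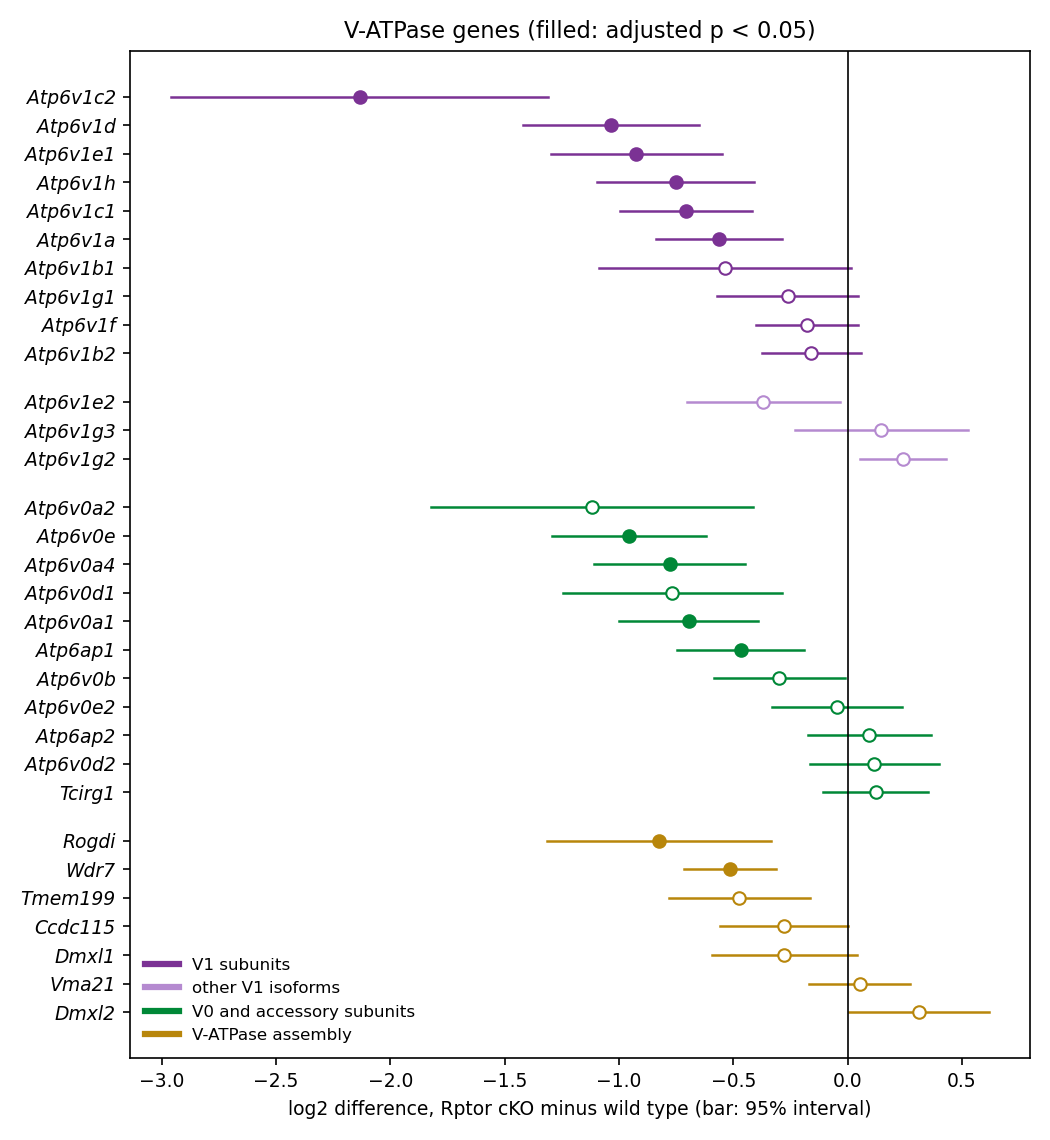
The plot of V-ATPase changes shows the log2 difference of Rptor cKO minus wild type with its 95% interval for the 10 V1 genes, 3 other V1 isoforms, 11 V0 and accessory genes and 7 assembly genes, with filled points for an adjusted p under 0.05. All filled points lie left of 0, from -2.13 for Atp6v1c2 to -0.47 for Atp6ap1.

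The Ragulator complex, the Rag GTPases and Slc38a9, which sit beside the pump on the lysosome, held 4 falls and no rise among 10 genes. The shares over all genes were 5.95% lower and 3.63% higher. At an unadjusted limma p under 0.05, 5 of the 10 were lower and 0 higher, beside 11.4% and 11.9% of all genes. The 4 falls were Slc38a9, the arginine sensor (-1.09, SE 0.14), the Ragulator subunits Lamtor4 (-0.61, SE 0.10) and Lamtor2 (-0.68, SE 0.13), and the GTPase Rragc (-0.47, SE 0.11). Slc38a9 alone passed without Rptor cKO array 2 (adjusted p = 0.0248), Lamtor2 missed without wild-type array 6 (0.0582), and Rragc missed without any array other than Rptor cKO array 1 (0.0593 to 0.141). None of the 4 MiT/TFE genes passed in limma or had an unadjusted p under 0.05. Tfec differed by 0.17 (SE 0.10) and Tfe3 by -0.08 (SE 0.09), but Tfec read under the negative control median on every array. The location and phosphorylation of the MiT/TFE proteins were not measured.

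Among 14364 other named genes with a mean above the negative control median, those with array profiles nearest to the mean of the 10 V1 genes were sought. Profiles were centred over the 6 arrays and ranked by root mean square distance. The 5 nearest were Esrp1 (0.03), an epithelial splicing regulator, Kif1b (0.04), a kinesin, Dhx32 (0.04), Gosr2 (0.05), a SNARE of the Golgi, and Plpp2 (0.05), a lipid phosphatase. Esrp1 read 8.29, 8.30 and 8.62 in Rptor cKO and 9.12, 8.98 and 9.21 in wild type. The 5 nearest to Atp6v1c2 were Nt5c3 (0.07), a nucleotidase, Hsbp1l1 (0.08), Asah2 (0.10), the neutral ceramidase, Dnase1l2 (0.10), a DNase of differentiating keratinocytes, and Zfand6 (0.12). Nt5c3 read 5.29, 5.13 and 6.03 in Rptor cKO and 8.34, 7.08 and 7.29 in wild type, with the same order of arrays within wild type as Atp6v1c2. These 10 genes were picked for their likeness on the same 6 arrays, so their own differences are no separate result.

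Across the series, 1793 genes were lower and 1094 higher in Rptor cKO, so that 62.1% of the called genes were lower, or 75.7% with array medians subtracted. Rptor itself read 6.54, 6.82 and 6.72 in Rptor cKO and 6.98, 7.46 and 7.004 in wild type. The groups were apart, but the difference of -0.46 (SE 0.15) missed the threshold (limma adjusted p = 0.0990). Read from Xist and Y-linked genes, 2 of the Rptor cKO embryos were female and the one on array 2 was male, and all 3 wild-type embryos were male. With the male arrays alone, which set Rptor cKO array 2 against the wild type, 3 V1 genes were lower, their median was -0.77, and 2.07% of all genes were lower. With sex as a term in the model 2 V1 genes were lower, Atp6v1e1 and Atp6v1h, and 1.46% of all genes. The keratins of the tissue were bright, with Krt5 at a mean of 12.22 in Rptor cKO and 12.18 in wild type. No V1 member lay under the negative control median on any array, although the 95 percentile of those controls, 7.46 to 8.07, was above many V1 values.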

How the data were processed

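Expression arrays of 6 epidermal sheets were used, 3 Rptor cKO and 3 wild type. The deposited values are log2 per probe set, made by the authors with RMA and Partek on genome build mm10, per the submitters' processing notes, which give no versions. RMA makes arrays alike in distribution, which hides any general change of RNA per cell, and it compresses changes of dim probe sets. No source used here gives slide or scan date. Of 72688 probe sets, 6732 controls were left out, and 30604 name 1 gene, 2146 several and 33206 none. Symbols were updated by Entrez ID. Each gene was read from its probe set of highest mean over the 6 arrays, which gave 30142 genes. The negative controls, 5222 probe sets, had an array median of 3.81 to 4.11.

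Group differences were fitted with limma 3.58.1 in R 4.3.3 (lmFit, eBayes, group as the only term, all 6 arrays, two-sided, Benjamini-Hochberg over 30142 genes, threshold 0.05, no filter). SE is the moderated standard error. The series calls the samples of a group biological replicates, and the number of arrays limits the precision. Isoform pairs used a two-sided exact permutation test. In data simulated for Rptor cKO against wild type with 30142 genes, 74% of genes lowered by 1 and 20.4% of those lowered by 0.5 on the log2 scale were recovered, and 5.01% of calls were false. The simulation changed few genes, all downward, and drew noise for each gene on its own. It held no shift shared across the genes of an array, so these rates may not hold for the real arrays. Named genes were all 10 members, the V-ATPase genes that passed or the 2 of smallest p in a list with none, up to 4 per direction of the neighbouring lists, and the 5 nearest profiles. Atp6v0b and Atp6v1g3 were named for their window and level, and Atp6v0a2 and Tcirg1 as isoforms of subunit a. Members and lists were chosen with earlier results of these data known. Alternatives were normalization, a filter on dim probe sets, the moderation, the probe set rule, embryo sex and each array left out. Sequences are from RefSeq (GRCm38.p6), and plots used matplotlib 3.10.9 in Python 3.11.15.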

Additional observations from a re-analysis of the deposited data

How the results depend on the processing

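The count of 6 lower V1 genes held with array medians subtracted, quantile normalization, a filter on dim probe sets, and trended and robust moderation. The mean of probe sets cannot change a V1 value, since each V1 gene has 1 probe set. For V0 and accessory genes the count was 6 with the dim filter and 3 with quantile normalization or trended and robust moderation, against 4. The dim filter left 20469 genes and called 9.18% of them lower, where the main fit called 5.95% of 30142. That share was 5.75% with quantile normalization and 5.34% with trended and robust moderation. An ordinary linear model without moderation called 0 V1 genes (6 at an unadjusted p under 0.05, lowest adjusted p 0.134) and 0 of the V0 and accessory genes, where 2 of 30142 genes were called lower and 6 higher. With the male arrays alone the counts were 3 and 2, and with embryo sex as a term 2 and 1; both compare Rptor cKO array 2, a lone sample assumed to vary like the others, with wild type. Leaving out each array gave 1 to 6 V1 genes and 1 to 5 V0 and accessory genes. The lowest came without Rptor cKO array 2, and the V0 count was 2 without wild-type array 6. Over 14 alternatives no V1 gene changed direction or rose, and the 6 called genes lost their call in 22 of 84 values, 7 of them for Atp6v1a. The dim filter, the changes of moderation and the mean of probe sets leave each V1 difference as it was, so no direction could change there. The male arrays alone and the sex term give the same V1 differences as each other. The 84 values are therefore not separate checks. The V1 median ran from -0.61 to -0.71 with 1 array left out, C2 minus C1 from -1.04 to -1.69 and B1 minus B2 from -0.09 to -0.59. No paired analysis was possible because the sample labels tie no Rptor cKO embryo to a wild-type embryo. The replicate numbers (1 to 3 against 4 to 6) do not show which embryos shared a litter.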
